A study of Bos taurus with 6 samples.

Results

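The genes described here are 10 regulators of lipid and mitochondrial genes, taken by symbol from the 22839 different symbols in the counts. They are the 3 peroxisome proliferator-activated receptors (PPARA, PPARD and PPARG), the 3 retinoid X receptors (RXRA, RXRB and RXRG), the coactivators PPARGC1A and PPARGC1B (PGC-1 alpha and beta), the estrogen-related receptor ESRRA and nuclear respiratory factor 1 (NRF1). The counts came from longissimus thoracis (LT) muscle of 6 Hanwoo (Korean native cattle) steers kept on commercial feed, with 1 library per steer. Steers 3-8, 10-8 and 10-9 had a high number of fine marbling particles (NFMP) on computer images of the ribeye, and steers 3-1, 3-3 and 10-16 had a low NFMP. No steer carried a treatment or an engineered allele. In the order given, their ages in months were 32.5, 33.8 and 34.5 (high NFMP) and 37.8, 33.7 and 35.4 (low NFMP), so that the low-NFMP steers were older on average while the age ranges overlapped. By the account of the study the groups also differed in marbling score, rib eye area and auction price, which cannot be told apart from NFMP here. All 10 genes were listed once and all 10 passed the filter on low counts, with raw counts between 72 (RXRG in steer 10-9) and 4608 (PPARGC1A in steer 10-8).

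PPARs are nuclear receptors that bind fatty acids and their derivatives, and each binds DNA as a pair with an RXR. PPARA and PPARD are known for driving fatty acid oxidation, PPARD above all in skeletal muscle, and PPARG is the receptor that adipocyte differentiation requires. The PGC-1 coactivators do not bind such DNA sites themselves but dock on PPARs, ESRRA and NRF1, through which they raise the transcription of mitochondrial genes.

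Each library held between 16283873 and 17192750 counted reads, and raw counts were scaled with TMM factors to a common library size (normalized counts). Testing used the quasi-likelihood method of edgeR on 15039 rows, with p-values adjusted over all of them. Muscle fibre markers (ACTA1, CKM, TTN, DES and MYBPC1) summed to between 1389000 and 1718000 normalized counts in every library, as the tissue label says, with overlapping groups. The slow-fibre and fast-fibre marker sums overlapped between the groups too, as did those of endothelial cells (from 793.5 to 1155), fibroblasts (from 9060 to 14560) and macrophages (from 294.5 to 538.6). Of the single markers in these lists, MYL3 (slow fibre, log2 fold change -0.78, unadjusted p = 0.00253) and PDGFRA (fibroblast and preadipocyte, -0.51, unadjusted p = 0.0391) were the only ones with an unadjusted p below 0.05, both lower in the high-NFMP group with the groups apart. The groups were also apart in CSF1R (macrophage, log2 fold change 0.73, unadjusted p = 0.0541) and CDH5 (endothelial, from 149.0 to 158.5 against 165.6 to 183.2 normalized counts). The 5 adipocyte markers (ADIPOQ, LEP, PLIN1, CIDEC and LIPE) summed to 4285, 2331 and 2258 in steers 3-8, 10-8 and 10-9, and to 1841, 2062 and 1652 in steers 3-1, 3-3 and 10-16. The sum was thus higher in each high-NFMP steer than the low-NFMP maximum, also without steer 3-8, and no marker was at 0. All 5 had a positive log2 fold change, from 0.47 to 0.89, and 3 (ADIPOQ, CIDEC and LIPE) had an unadjusted p below 0.05. LEP and PLIN1 overlapped between the groups, and without steer 3-8 their log2 fold changes were -0.51 and -0.06. In these bulk samples more cells of a type and more RNA per cell cannot be told apart.

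Of the 10 regulators, only PPARD passed the threshold of the study (an unadjusted p below 0.05 and a fold change above 2). It was higher in the high-NFMP group. By that rule 3.90% of all tested rows were called, 2.53% in the higher and 1.36% in the lower direction, so that 1 of 10 is near the background. PPARD was also the only regulator with an adjusted p below 0.05, a level that 0.685% of all rows reached. The median log2 fold change (high minus low NFMP) of the 10 was 0.20, with 6 positive and 4 negative values, beside 0.02 over all tested rows. The PPARD call is not independent evidence, because the study had picked PPARD from these libraries for qPCR. That qPCR used a larger set of steers that included these. By the account of the study, it gave PPARD a smaller fold than the sequencing, in the same direction but without statistical significance.

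**Figure D1:**
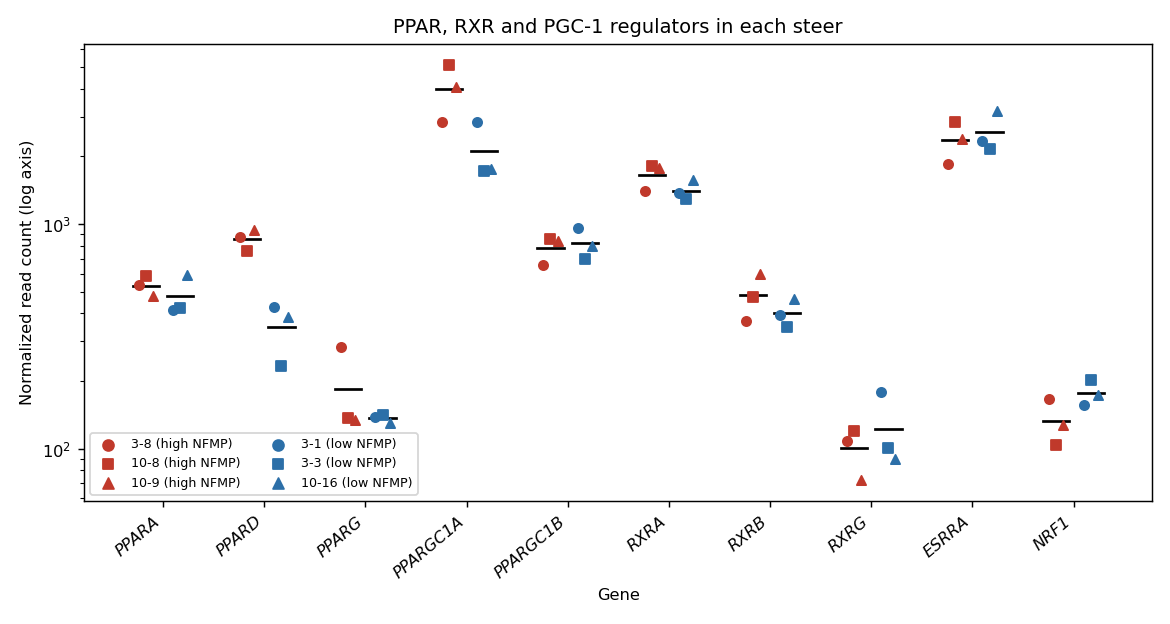
Normalized read count (log axis) of the 10 regulators in each steer, high NFMP in red and low NFMP in blue, with a black line at each group mean (n = 3). PPARD is the gene whose groups lie clearly apart, from 755.7 to 938.7 against 234.1 to 426.8.

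PPARD was counted 866, 680 and 936 times in steers 3-8, 10-8 and 10-9, and 446, 253 and 383 times in steers 3-1, 3-3 and 10-16. After normalization this was 877.6, 755.7 and 938.7 against 426.8, 234.1 and 386.7. The high-NFMP steers lay close together and all above the low-NFMP steers, of which steer 3-3 was the lowest. The group means were 857.3 ± 93.2 and 349.2 ± 102 (SD, n = 3 each). The fold change was 2.46 (95% interval 1.75 to 3.44), and the log2 fold change 1.30 ± 0.23 (SE), with an adjusted p of 0.017 by edgeR. Leaving out 1 steer at a time gave values between 1.07 (without steer 3-3) and 1.46 (without steer 3-1) on the log2 scale. The adjusted p was then above 0.05 without steer 3-8 (0.0881), 10-9 (0.0524) or 3-3 (0.106). Among steers whose label starts with 3, PPARD was 2.66 times as high in the 1 high-NFMP as in the 2 low-NFMP steers. Among those starting with 10, it was 2.19 times as high in the 2 high-NFMP as in the 1 low-NFMP steer. What these numbers stand for is not given in the labels.

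PPARA did not pass the test, with 533.0, 585.6 and 478.4 normalized counts (high NFMP) and 415.3, 421.0 and 594.6 (low NFMP). The groups overlapped, since the highest value of all was that of the low-NFMP steer 10-16. Its log2 fold change was 0.16 (95% interval -0.27 to 0.59, adjusted p = 0.802 by edgeR), so that a fold change above 1.51 lay outside the interval.

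PPARG was at 282.7 normalized counts in the high-NFMP steer 3-8. The other 5 steers held a narrow range, at 136.7 and 134.4 in steers 10-8 and 10-9 (high NFMP) and at 137.8, 141.6 and 130.2 in steers 3-1, 3-3 and 10-16 (low NFMP). The log2 fold change of 0.44 (95% interval -0.19 to 1.06, adjusted p = 0.61 by edgeR) rested on steer 3-8, and without it the value was -0.01. The same steer had the highest adipocyte marker sum, and FABP4, a fatty acid carrier of adipocytes named here after its values were seen, was at 4945 normalized counts in it and between 1019 and 2044 in the others. The part of these markers in the PPARG value was not tested.

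Within a library the PPARs can be compared without any scaling. These are ratios of reads not divided by transcript length, so that only their shift between steers is compared. PPARD had 1.65, 1.29 and 1.96 reads per PPARA read in steers 3-8, 10-8 and 10-9, and 1.03, 0.557 and 0.651 in steers 3-1, 3-3 and 10-16. Every high-NFMP steer had the larger ratio, and the mean log2 ratio differed by 1.16, a 2.24-fold shift (exact two-sided permutation p = 0.1, the smallest that 3 against 3 can give). PPARD took 51.8%, 51.1% and 60.5% of the reads of the 3 PPARs (high NFMP) against 43.6%, 29.4% and 34.8% (low NFMP). The share of PPARG, from 8.66% to 17.8%, overlapped between the groups. PPARG per PPARD read lay from 0.144 to 0.323 in the high-NFMP steers and from 0.324 to 0.606 in the low-NFMP steers, nearly meeting at steers 3-8 and 3-1, and the exact permutation p was again 0.1. The ratio of PPARG to PPARA did not separate the groups, with a mean log2 difference of 0.17 (exact permutation p = 0.8). Adjusted over the 7 ratios tested, no p was below 0.233.

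PPARGC1A was counted 2812, 4608 and 4046 times in steers 3-8, 10-8 and 10-9, and 2978, 1870 and 1747 times in steers 3-1, 3-3 and 10-16. The normalized counts were 2849.6, 5120.7 and 4057.8 against 2849.6, 1730.4 and 1763.7. The groups therefore nearly met, with steers 3-8 and 3-1 level to 0.1 counts after normalization. The means were 4009 ± 1140 and 2115 ± 637 (SD, n = 3 each). The log2 fold change was 0.92 ± 0.25 (SE; 95% interval 0.39 to 1.46), with an unadjusted p of 0.00249 and an adjusted p of 0.145 by edgeR. Its fold change of 1.90 was just under the threshold of 2, and the intervals of both PPARGC1A and PPARD included 2. Among the steers whose label starts with 3 the fold was 1.24, and among those starting with 10 it was 2.60. PPARGC1A passed the p and fold threshold without steer 3-8 (log2 fold change 1.12), without steer 3-1 (1.20) and with age as a term (1.36). An adjusted p below 0.05 was reached with DESeq2 (0.0294) and in edgeR with no filter on low counts (0.0439).

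PPARGC1B, the related coactivator, had 656.7, 855.7 and 842.4 normalized counts (high NFMP) and 963.6, 699.6 and 802.6 (low NFMP). Its log2 fold change was -0.07 (95% interval -0.48 to 0.35, adjusted p = 0.918 by edgeR), with overlapping groups. In reads of the same library, PPARGC1A was 4.34, 5.98 and 4.81 times PPARGC1B in steers 3-8, 10-8 and 10-9, and 2.96, 2.47 and 2.20 times in steers 3-1, 3-3 and 10-16. This ratio separated the groups more widely than the normalized counts of PPARGC1A, and its mean was 1.98 times as large in the high-NFMP group (log2 difference 0.99, exact permutation p = 0.1). PPARGC1A made up between 81.3% and 85.7% of the reads of the pair in the high-NFMP steers and between 68.7% and 74.7% in the low-NFMP steers. Of the 10 regulators, PPARD and PPARGC1A were the ones whose normalized counts did not overlap, PPARGC1A only by less than 0.1 counts, while 17.1% of all tested rows had groups that did not overlap.

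**Figure D2:**
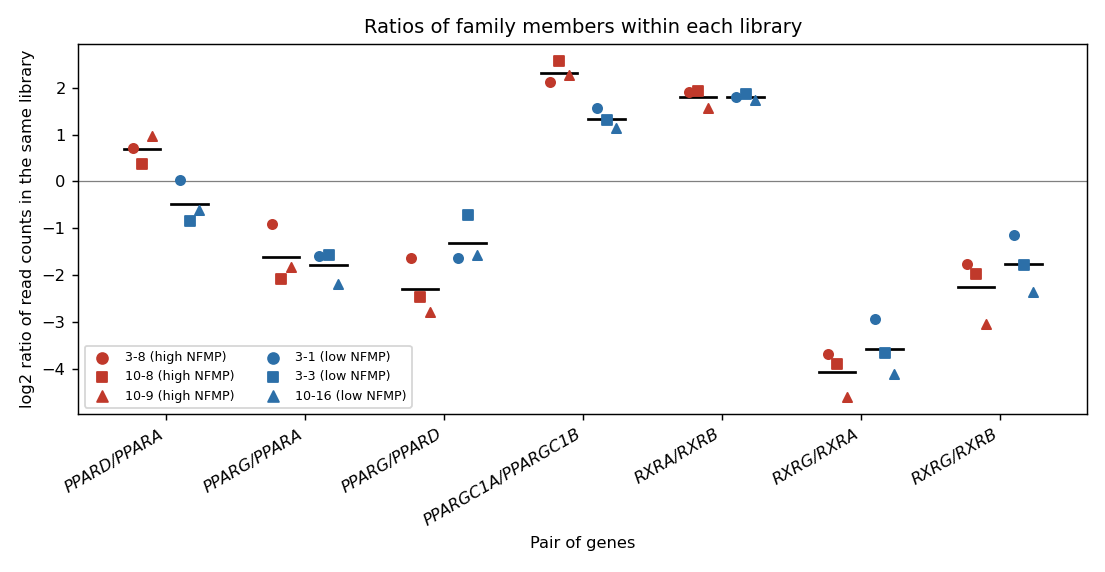
The log2 ratio of raw read counts of 2 family members in the same library (0.5 added to each count), for each of the 6 steers, with black lines at the group means (n = 3). The ratios PPARD/PPARA and PPARGC1A/PPARGC1B lie higher in all 3 high-NFMP steers, PPARG/PPARD lies lower, and the other 4 overlap.

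The RXRs, the obligate partners of the PPARs, all had overlapping groups and intervals that included 0. RXRA had between 1397 and 1807 normalized counts in the high-NFMP steers and between 1287 and 1565 in the low-NFMP steers. Its log2 fold change was 0.24 (95% interval -0.15 to 0.62, adjusted p = 0.654 by edgeR). RXRB lay between 371.9 and 597.7 against 349.8 and 464.4, with a log2 fold change of 0.26 (95% interval -0.20 to 0.72, adjusted p = 0.68). RXRG, known as the isoform of muscle and brain, had the fewest counts, between 72.21 and 120.0 against 89.85 and 178.0, and a log2 fold change of -0.30 (95% interval -0.97 to 0.37, adjusted p = 0.755). RXRA held a steady share of the RXR reads, between 70.6% and 75.2%, and the RXRA to RXRB ratio differed by -0.01 on the log2 scale (exact permutation p = 1). RXRG had from 2.95% to 9.14% of the RXR reads, and both its ratios overlapped between the groups.

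ESRRA, an orphan receptor that PGC-1 coactivators use on mitochondrial genes, was at 1844, 2853 and 2404 normalized counts in steers 3-8, 10-8 and 10-9 and at 2346, 2159 and 3189 in steers 3-1, 3-3 and 10-16. The groups overlapped, and the log2 fold change was -0.12 (95% interval -0.57 to 0.34, adjusted p = 0.866 by edgeR). ESRRA overlaps TRMT112 in the assembly ARS-UCD2.0, whose log2 fold change was 0.04. NRF1, which binds promoters of mitochondrial genes, was at 166.2, 103.3 and 127.4 normalized counts (high NFMP) and 156.0, 201.7 and 173.6 (low NFMP). Steer 3-8 overlapped the low-NFMP range, and the log2 fold change was -0.42 (95% interval -0.96 to 0.12, adjusted p = 0.556). The RefSeq gene table also gives NRF1 as another name of NFE2L1, a different gene, which was listed under its own symbol at 14000 against 14740 normalized counts.

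**Figure D3:**
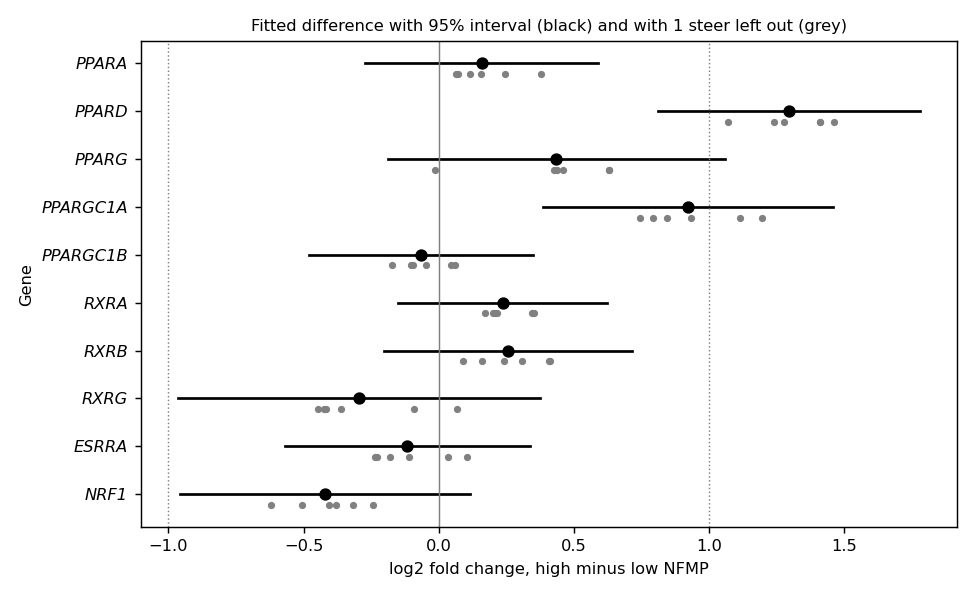
Log2 fold change (high minus low NFMP) of the 10 regulators by edgeR with its 95% interval in black, and the values with each steer left out in grey. The intervals of PPARD (0.81 to 1.78) and PPARGC1A (0.39 to 1.46) exclude 0, and those of the other 8 include it. The dotted lines mark a fold change of 2.

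The genes around these regulators were taken from 7 lists with 99 genes, of which 98 were tested. Past the p and fold threshold were 2 of the 98 (2.04%), both higher in the high-NFMP group, which is below the 3.90% of all rows. Their median log2 fold change was 0.00. At an unadjusted p below 0.05 alone, 5.73% of all rows were higher and 5.74% lower.

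Of the lipid genes known as PPAR targets, none passed the p and fold threshold. Among the 11 lipid droplet and adipocyte genes, 9 had a positive log2 fold change, the median was 0.47, and 5 had an unadjusted p below 0.05, all higher. That number rested on single steers. It was 2 without steer 3-8, 10-8 or 3-3, 8 without steer 10-9, and 1 with age as a term, while the median stayed between 0.22 and 0.70 in all 15 alternatives. CIDEC, which enlarges lipid droplets, was at 1119, 554.5 and 523.5 normalized counts in the high-NFMP steers and at 456.4, 385.9 and 342.2 in the low-NFMP steers. The groups were apart, with the highest value in steer 3-8, and on the log2 scale the difference was 0.89 ± 0.27 (SE; adjusted p = 0.214 by edgeR). CIDEC passed the p and fold threshold without steer 10-8 (1.07), 10-9 (1.09) or 3-1 (1.01) and with the first label number as a term (1.04), but the log2 difference was 0.45 without steer 3-8. PLIN5, a droplet coat protein of oxidative tissue, was at 215.8, 419.0 and 329.0 against 211.5, 180.4 and 200.9, with a log2 fold change of 0.70 (adjusted p = 0.279). Of this list ADIPOQ, PLIN1 and CIDEC are also adipocyte markers, and the adipocyte marker sum moved with the group as given above. Its part in these values was not tested.

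The 7 uptake genes had a median log2 fold change of 0.06, and 1 had an unadjusted p below 0.05. This was SLC27A1, a fatty acid transporter, with 485.4, 505.6 and 336.0 normalized counts against 377.0, 227.6 and 273.6 and a log2 fold change of 0.60 (adjusted p = 0.343 by edgeR). FABP3, the fatty acid carrier of muscle, had a log2 fold change of 0.37 (95% interval -0.31 to 1.06). The 14 tested oxidation genes were split, with 6 positive and 8 negative values and a median of -0.08. CPT2, which frees acyl-CoA inside mitochondria, was at 98.30, 112.2 and 108.3 against 218.2, 127.7 and 173.6, with a log2 fold change of -0.70 (adjusted p = 0.303, from -0.89 to -0.34 over the 15 alternatives).

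Among the 17 other RXR partners and related receptors, NR4A2 was past the p and fold threshold. This orphan receptor of the NR4A family had 440.8, 425.6 and 368.1 normalized counts (high NFMP) against 181.8, 157.3 and 256.4 (low NFMP). The log2 difference was 1.05 ± 0.22 (SE; adjusted p = 0.0495 by edgeR). This value was just under the fold threshold without steer 3-8 (0.9971), 3-1 (0.9900) or 3-3 (0.9060), and with library totals alone (0.9958). Its adjusted p was above 0.05 in 9 of the 15 alternatives, 5 of them with a steer left out (all but 10-16), and reached 0.330 with age as a term. NR4A2 overlaps GPD2 in ARS-UCD2.0. ESRRG, a receptor of the ESRRA family and a partner of PGC-1 in oxidative muscle, was at 2330, 2314 and 1802 against 1276, 1195 and 1536. The groups were apart, but the difference of 0.69 ± 0.19 (SE, log2 scale) was under the fold threshold, and the adjusted p was 0.141. In all, 12 of the 17 had positive values, with a median of 0.20, and 4 had an unadjusted p below 0.05, all higher. That number of higher genes was 6 without steer 3-1 and 5 with age as a term. It was 2 without steer 10-9, 3-3 or 10-16, with library totals alone and with the first label number as a term. Without steer 3-8, 1 gene was lower at that p.

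Of the 18 genes acting on PPARGC1A, PRKAG2 was past the p and fold threshold. It encodes a regulatory subunit of AMP-activated protein kinase and had 840.1, 1029 and 1501 normalized counts against 537.8, 449.7 and 560.3. The study had already reported PRKAG2 as higher from these libraries, so that this call is not independent evidence. Each high-NFMP steer was above each low-NFMP steer, and the log2 difference was 1.12 ± 0.22 (SE; adjusted p = 0.034 by edgeR). The fold threshold was not reached without steer 10-9 (0.87) or with the first label number as a term (0.97). The adjusted p of PRKAG2 was above 0.05 in 8 of the 15 alternatives, 5 of them with a steer left out (all but 3-8), and reached 0.200 without steer 3-3. CRTC2, a coactivator of CREB1, had 156.1, 288.9 and 118.3 against 79.42, 125.8 and 78.75, with overlapping groups, a log2 fold change of 0.98 and an adjusted p of 0.262. It passed that threshold without steer 3-8 (1.10), 10-9 (1.25) or 3-3 (1.24), while without steer 10-8 the value was 0.56 with an unadjusted p of 0.0974. The median of this list was -0.04. No coregulator of the 18 listed passed the threshold. The smallest p were those of the p160 coactivators NCOA3 (log2 fold change -0.61, adjusted p = 0.255) and NCOA1 (-0.42, adjusted p = 0.373), both with all 3 high-NFMP values under all 3 low-NFMP values.

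The 13 genes for transcription and copying of mitochondrial DNA, several of them known targets of NRF1, had 10 negative and 3 positive values and a median log2 fold change of -0.36. None passed the p and fold threshold, and 4 (TFAM, TFB2M, MTERF3 and TWNK) had an unadjusted p below 0.05, all lower. TWNK, the helicase that unwinds mitochondrial DNA, is described here after its values were seen and was at 34.45, 108.9 and 72.21 normalized counts against 131.1, 166.6 and 118.1, with a log2 difference of -0.95 (adjusted p = 0.316 by edgeR). It passed the p and fold threshold, lower in the high-NFMP group, in 5 of the 15 alternatives, which were library totals alone (-1.05), quantile normalization with limma (-1.12), the first label number as a term (-1.19) and the fits without steer 10-8 (-1.33) or 10-16 (-1.02). Without steer 3-8 the value was -0.62 (unadjusted p = 0.0612), without steer 3-3 -0.80 (0.0709), and with age as a term -0.92 (0.0531). The number of list genes at an unadjusted p below 0.05 was 2 without steer 3-3 and with age as a term, and the median lay between -0.48 and -0.27 in all 15 alternatives. TFB2M, an initiation factor of the mitochondrial RNA polymerase, was at 235.1, 220.0 and 167.5 normalized counts against 330.1, 330.4 and 409.9. Its groups were apart, with a log2 difference of -0.78 ± 0.22 (SE; adjusted p = 0.146 by edgeR). MTERF3, a negative regulator of that transcription, was at 106.4, 127.8 and 74.22 against 188.5, 184.1 and 156.5, with a log2 fold change of -0.78 (adjusted p = 0.251). The summed counts of the 13 genes were 2121, 2261 and 2569 (high NFMP) against 2768, 2757 and 2820 (low NFMP). The fitted values of these genes were thus mostly opposite in sign to that of PPARGC1A. A relation between them was not tested, and none of the 13 genes had an adjusted p below 0.05 in this edgeR fit.

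**Figure D4:**
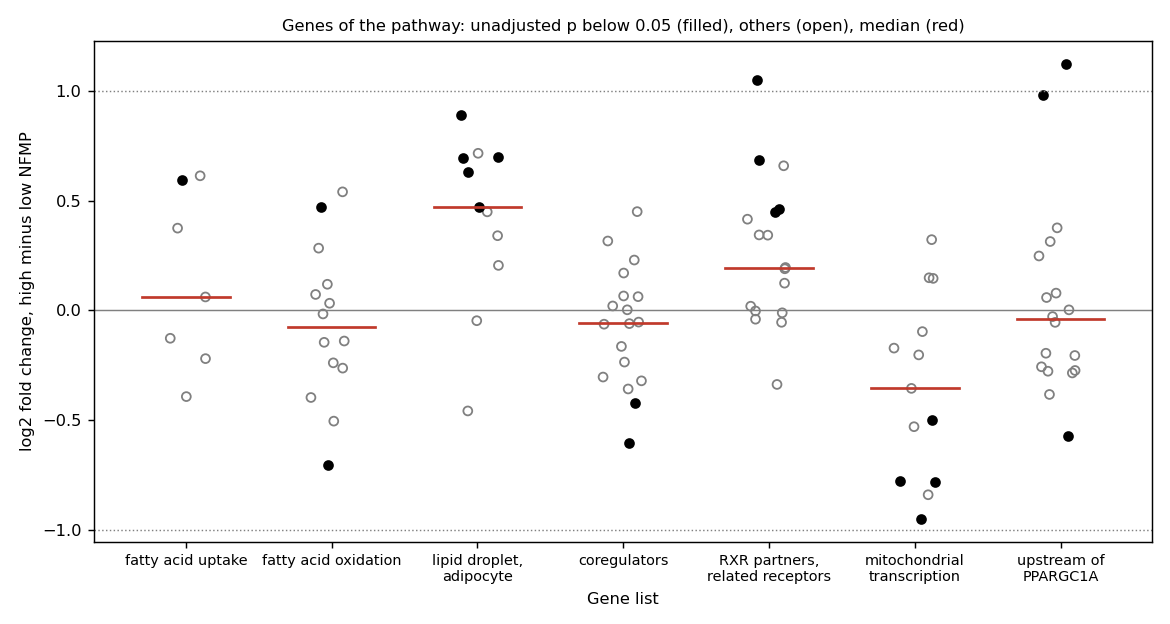
Log2 fold change (high minus low NFMP) of each tested gene in the 7 lists, filled where the unadjusted p by edgeR was below 0.05, with the list median in red and dotted lines at a fold change of 2. The medians run from -0.36 (mitochondrial transcription) to 0.47 (lipid droplet and adipocyte genes), and the 2 points above the upper line at an adjusted p below 0.05 are NR4A2 and PRKAG2.

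The genes whose log2 normalized counts followed each PPAR most closely over the 6 libraries were sought among 9875 other genes with a mean of at least 50 normalized counts. For PPARD they were SYT4, TAS1R1 and the oxysterol receptor NR1H3 (Pearson r = 0.99, 0.99 and 0.98 over 6 libraries). For PPARA they were HECTD2, MARF1 and TP53INP1 (r = 0.99, 0.99 and 0.97), and for PPARG CFAP126, SIK2 and EDEM2 (r = 0.99, 0.98 and 0.98). With so few libraries and so many genes, such values describe likeness in these libraries alone.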

How the data were processed

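RNA sequencing of LT muscle from 6 steers was analysed, 3 per group, grouped by the labels. The authors deposited raw read counts per gene symbol from a Lexogen oligo-dT library (single-end reads). Their methods name Tophat2 with HTSeq in one place and Bowtie2 with unique and multiple alignments in another, and the labels name Bowtie2 and bedtools. Which of these made the counts, and whether they used strand, the sources used here do not state.

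Counts were fitted in R 4.3.3 with edgeR 4.0.16 (minimum count 10, minimum total 15, TMM factors between 0.92 and 1.08, robust quasi-likelihood test), with Benjamini-Hochberg adjustment over 15039 of 23015 rows. The biological coefficient of variation was 25.1%. Normalized counts are scaled to the mean effective library size of 16799032. Standard errors came from the fold change and F statistic. Each library is a separate steer, and p-values measure the spread between these samples. With no molecular identifiers, reads may be PCR copies. The procedure was tested on simulated data.

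The members and lists were chosen with earlier results of these data known. Genes described as overlapping, the alternatives for single list genes and those for counts within lists were added after the results were seen. Named genes were the 10 regulators, genes past the threshold in each list filled up to 2 by smallest p, and the 3 genes most like each PPAR, and any other gene was chosen with its values in view. Some results that this rule selects are not reported here. Overlaps of genes were read from RefSeq genes on ARS-UCD2.0, which is not the build of the paper. Alternatives used DESeq2 1.42.0, limma 3.58.1 with quantile normalization, other filters and scalings, age or the first label number as a term, summed repeated symbols and each steer left out. Division by coding length was not run, since no protein lengths were used here.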

Additional observations from a re-analysis of the deposited data

How the results depend on the processing

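PPARD kept its direction and stayed past the p and fold threshold in all 15 alternatives, with log2 fold changes from 1.07 to 1.66, and its adjusted p was below 0.05 in 12 of them, the 3 exceptions being fits with a steer left out. The number of regulators past that threshold was 1 in the report, 2 with age as a term, and from 1 to 2 with a steer left out. The number at an adjusted p below 0.05 was 1 in the report, 2 with no filter and with DESeq2, and from 0 to 1 with a steer left out. The added gene was PPARGC1A each time. The pathway genes past the threshold numbered 2 in the report, 3 with quantile normalization and limma, with the label number as a term and with age as a term, and from 2 to 4 with a steer left out. Of the values not called, PPARGC1B was 0.1986 and RXRG 0.0444 with age as a term, against -0.07 and -0.30 in the report. With a steer left out the log2 fold change ran from -0.0132 to 0.6298 for PPARG, from -0.1733 to 0.0609 for PPARGC1B, from -0.2353 to 0.1065 for ESRRA, from -0.4473 to 0.0673 for RXRG, and, among the adipocyte markers, from -0.5057 to 0.8036 for LEP (-0.2315 with age as a term) and from -0.0575 to 1.0788 for PLIN1. The mean log2 ratio difference then ran from -0.1799 to 0.4106 for PPARG to PPARA and from -0.0698 to 0.1073 for RXRA to RXRB. Of the lists, the 5 lipid droplet and adipocyte genes at an unadjusted p below 0.05 became 3 with library totals alone, 1 with age as a term and from 2 to 8 with a steer left out, and the 4 genes of mitochondrial transcription became 5 with no filter, with library totals alone and with quantile normalization, 2 with age as a term and from 2 to 4 with a steer left out, both examined after the results were seen. The causes were not tested. The other 6 regulators kept their sign in all 15 alternatives. Age could not be separated well from the group, and PPARG, RXRG and NRF1 rested on between 72 and 279 raw counts per library, so that their counting error was larger than that of the other regulators. The labels give no pairs of steers, and the first label number, shared by steers of both groups, was fitted as a term and left the regulators called unchanged at 1. Division by coding length was not run.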
